A study of Mus musculus with 4 samples.

Results

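The genes described here are 10 writers, erasers and readers of methylation at lysine 36 of histone H3 (H3K36), chosen by their symbols from the 53379 genes of the deposited table. The writers were *Setd2*, *Nsd1* and *Ash1l*, the erasers *Kdm2a*, *Kdm2b* and *Kdm4a*, and the readers *Dnmt3a*, *Msh6*, *Psip1* and *Zmynd11*. YFP+ Treg cells, gated as CD3+CD4+, came from the large intestine (LI) of adult C57BL/6 littermates at steady state, and each of the 4 libraries came from cells pooled from 2 to 3 mice. The 2 control libraries came from mice with 1 floxed and 1 intact copy of *Setd2* (genotype Setd24flox/+Foxp3-YFPcre in the labels) and the 2 KO libraries from mice with 2 floxed copies (Setd24flox/floxFoxp3-YFPcre). Both groups carried Foxp3-YFPcre, a Cre and YFP fusion expressed from the *Foxp3* locus, so that recombination is directed to Foxp3-expressing cells and the control cells can also lose 1 copy of *Setd2*. The study compared these groups to learn what Setd2 does in intestinal Treg cells. The level of a gene is given as FPKM, a fragment count scaled to the length of the transcript and to the mapped fragments of the library, so that levels of different genes can be compared.

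The trimethyl state of H3K36 lies behind the promoter, over the bodies of active genes. *Nsd1* and *Ash1l* encode enzymes that add the mono- and dimethyl states, and *Setd2* encodes the enzyme that adds the trimethyl state while it travels with elongating RNA polymerase II. KDM2A and KDM2B remove the lower methyl states and bind unmethylated CpG through a CXXC zinc finger, and KDM4A removes trimethyl marks from H3K36 and H3K9. DNMT3A (a de novo DNA methyltransferase), MSH6 (a mismatch recognition protein), LEDGF (a transcriptional coactivator encoded by *Psip1*) and ZMYND11 (a regulator of elongation) bind methylated H3K36 through a PWWP domain. In Treg cells, stable expression of *Foxp3* is known to depend on loss of DNA methylation at a conserved element of that gene, a setting in which writers of histone and DNA methylation are studied.

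No difference between KO and control LI Treg cells was detected in any of the 10 genes. limma on log2(FPKM + 1) called 0 of 10 higher and 0 of 10 lower in KO at an adjusted p below 0.05, beside 0.314% and 0.275% of the 7639 genes tested (0.589% in either direction). At an unadjusted p below 0.05 it again called 0 of 10, beside 16.2% of all genes tested. All 10 were tested, since each is protein-coding and had a mean FPKM above 5 in at least one group. Their median log2 fold change (KO over control) was -0.03 and their median absolute log2 fold change 0.08, compared with -0.0039 and 0.18 for all genes tested. The 95% interval of every one of the 10 held 0, and over all of them the intervals ran from -0.67 to 0.79, so that log2 fold changes of 1 or -1 lay outside each. The ranges of the groups did not overlap for 4 of 10 genes, or 40.0% (3 higher and 1 lower), beside 47.1% of all genes tested. For 2 libraries against 2, the smallest p that a two-sided exact permutation test allows is 0.333. The p-values of limma rest on the spread between pools, with each gene's variance drawn towards a trend fitted over all genes tested. For *Dnmt3a*, whose control and KO pairs differed by 0.08 and 0.02 on the log2 scale, the standard error was 0.20. The values of the 4 libraries followed a common distribution, with sums of FPKM between 774923 and 774999, so they hold no information on total mRNA, and fewer cells of a type cannot be told apart from less RNA per cell.

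**Figure D1:**
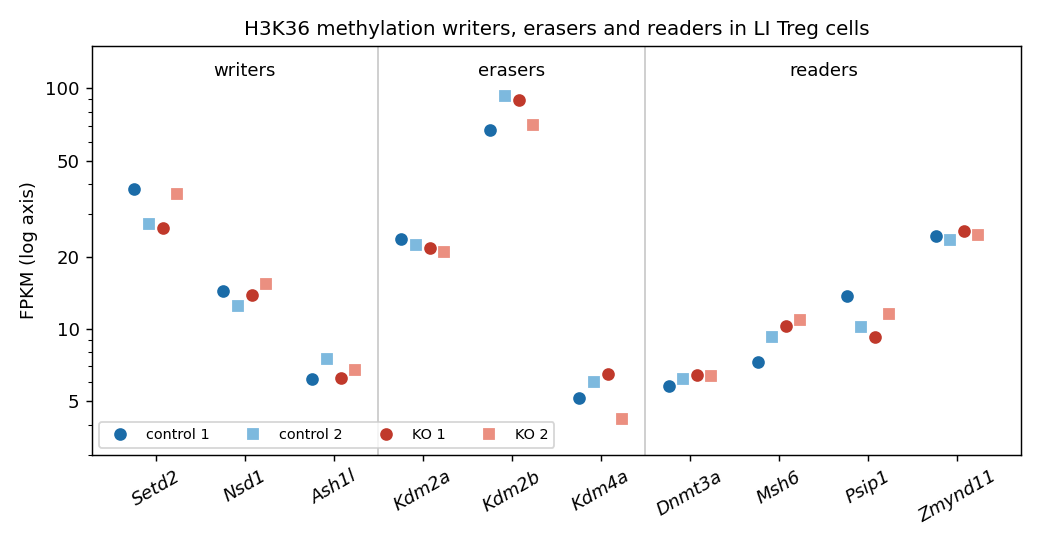
FPKM (log axis) of the 10 genes in each library, with blue symbols for the control and red symbols for the KO libraries. *Kdm2b* lay between 66.98 and 93.06 and above the other 9 genes in every library, while *Setd2* and *Kdm2b* each showed a higher and a lower library within both groups.

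The windows before the annotated starts of 4 of these genes are printed because *Setd2* was the gene targeted, *Kdm2b* had the highest level, *Kdm4a* varied most between libraries and *Msh6* differed most between the groups. RefSeq (GRCm38.p6, a patch of the GRCm38 assembly that the authors mapped to) gave 14 windows, some of which overlap, for 6 of the 10 genes. Each sequence below holds the 250 bases before a start, read 5′ to 3′ on the strand of the gene, with no exon annotated in GENCODE inside it. The CpG dinucleotides, which the CXXC fingers of KDM2A and KDM2B bind when unmethylated and which DNMT3A methylates, are in capitals. The *Setd2* window is chr9:110532347-110532596 (plus strand) and that of *Msh6* chr17:87974800-87975049 (plus strand). The *Kdm4a* window is chr4:118180044-118180293 (minus strand). The *Kdm2b* window, chr5:122900368-122900617 (minus strand), lies inside the gene before an internal start.
Setd2: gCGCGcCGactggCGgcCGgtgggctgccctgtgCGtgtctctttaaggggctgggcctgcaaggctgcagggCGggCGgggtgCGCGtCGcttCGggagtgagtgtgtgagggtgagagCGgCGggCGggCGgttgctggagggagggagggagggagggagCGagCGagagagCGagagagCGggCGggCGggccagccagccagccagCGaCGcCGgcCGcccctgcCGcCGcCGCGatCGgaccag
Kdm2b: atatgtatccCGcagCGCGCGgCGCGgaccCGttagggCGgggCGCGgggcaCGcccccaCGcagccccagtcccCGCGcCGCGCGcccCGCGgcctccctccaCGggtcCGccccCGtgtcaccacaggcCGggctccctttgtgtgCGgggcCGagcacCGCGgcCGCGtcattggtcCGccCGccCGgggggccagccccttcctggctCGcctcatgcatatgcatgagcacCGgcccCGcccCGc
Kdm4a: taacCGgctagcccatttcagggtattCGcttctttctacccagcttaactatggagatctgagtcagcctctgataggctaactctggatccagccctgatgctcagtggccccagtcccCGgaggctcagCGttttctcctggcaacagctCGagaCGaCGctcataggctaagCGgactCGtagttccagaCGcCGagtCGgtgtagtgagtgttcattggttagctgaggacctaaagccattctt
Msh6: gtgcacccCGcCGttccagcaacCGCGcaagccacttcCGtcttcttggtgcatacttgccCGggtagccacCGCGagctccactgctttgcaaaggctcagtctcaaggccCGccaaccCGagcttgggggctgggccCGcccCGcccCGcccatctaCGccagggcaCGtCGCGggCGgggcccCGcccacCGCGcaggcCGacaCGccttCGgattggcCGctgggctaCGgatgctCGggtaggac
The *Setd2* window holds 31 CpG, a number that 5.19% of the 32851 windows of the same length reach. The printed *Kdm2b* window holds 36 (reached by 2.58%), the *Msh6* window 27 (8.56%) and the *Kdm4a* window 12 (33.5%). Other *Kdm2b* windows hold 38 at the internal start and 27 and 12 near the distal end of the gene. The bases just after the starts of the printed *Kdm2b* and *Msh6* windows were not found in a GENCODE transcript of the gene. The median window holds 6, and 13 of the 14 windows of these genes hold more. The letters TGANTCA, bound by AP-1 factors such as Fos and Jun, were searched on both strands and found once in the *Kdm4a* window and in 0 of the other 13, compared with 6.75% of all windows. CCAAT was found in 5 of the 14 windows and in 33.8% of all windows, and CCGGAAG and TTTNGCGC, which resemble ETS and E2F sites, in 0 of 14 (6.91% and 1.13% of all windows). A match describes letters in a window and not a bound site.

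The writer that the study targeted, *Setd2* (chr9:110532597-110618633, plus strand), was measured at an FPKM of 38.19 and 27.36 in controls 1 and 2, and of 26.33 and 36.30 in KO 1 and KO 2. The highest and the second lowest value thus belonged to the control group, and the groups overlapped. Its fold change was 0.958, with a 95% interval from 0.679 to 1.35, so a fall of the mRNA to under 0.679 of the control level was outside the interval. The 2 control libraries differed by 0.47 on the log2 scale and the 2 KO libraries by 0.45, compared with medians of 0.19 and 0.16 for all genes tested. Its log2 fold change of -0.06 became 0.17 without control 1 and 0.16 without KO 1, and -0.30 without control 2 and -0.29 without KO 2. The value covers every exon of the gene, 23 exons after merging the 10 annotated transcripts, and does not separate floxed from other exons. The genotype of each library could not be read from this gene, and control and KO mean the libraries as they are labelled.

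*Nsd1* (chr13:55209782-55318325), which encodes a methyltransferase for the dimethyl state, had an FPKM of 14.44 and 12.48 in the control and 13.89 and 15.39 in the KO libraries. The groups overlapped, and the log2 fold change was 0.11 with a standard error of 0.17 and an adjusted p of 0.793. It was 0.21 without control 1 and 0.18 without KO 1, but 0.017 without control 2 and 0.046 without KO 2. *Ash1l* (chr3:88950622-89079375), a Trithorax group methyltransferase, had 6.19 and 7.53 in control and 6.27 and 6.76 in KO. Both KO values lay between the control values, and the log2 fold change was -0.06 with a standard error of 0.21 and an adjusted p of 0.927. It was 0.06 without control 2 and -0.18 without control 1. Summed over the 3 writers, the FPKM was 58.82 and 47.37 in the control and 46.49 and 58.45 in the KO libraries, an order set mainly by *Setd2*.

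*Kdm2b* (chr5:122870665-122989823, minus strand), which encodes an eraser that also recruits a variant polycomb complex to CpG islands, had the highest level of the 10 genes. Its FPKM was 66.98 and 93.06 in controls 1 and 2, and 89.18 and 70.19 in KO 1 and KO 2. The high libraries were control 2 and KO 1, the reverse of *Setd2*, and the KO values lay inside the range of the control values. The mean was 80.0 ± 18.4 (SD, n = 2) in control and 79.7 ± 13.4 in KO. On the log2 scale the groups differed by 0.00 (standard error 0.19). The log2 fold change was -0.23 without control 1 and -0.17 without KO 1, and 0.24 without control 2 and 0.17 without KO 2. The gene has 20 annotated transcripts that begin at both distal and internal starts, and some that begin inside the gene lack the demethylase domain. The FPKM sums them, so the share of each form is not known from these values.

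*Kdm2a* (chr19:4314419-4398285), the paralog of *Kdm2b*, had an FPKM of 23.60 and 22.23 in control and 21.78 and 20.85 in KO. Both KO libraries were below both control libraries, the only one of the 10 genes with this order, which 22.9% of the genes tested had. The difference was small, with a log2 fold change of -0.10 (95% interval -0.43 to 0.23, adjusted p = 0.786). *Kdm4a* (chr4:118136957-118180043), which encodes an eraser of the trimethyl state, had 5.18 and 6.02 in control and 6.53 and 4.21 in KO. The 2 KO libraries held its highest and its lowest value, and they differed by 0.53 on the log2 scale. Its log2 fold change of -0.07 became 0.19 without KO 2 and 0.02 without control 2, and -0.34 without KO 1 and -0.16 without control 1. Its interval, from -0.67 to 0.53, was the widest of the 10. Summed over the 3 erasers, the FPKM was 95.76 and 121.31 in control and 117.49 and 95.25 in KO.

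**Figure D2:**
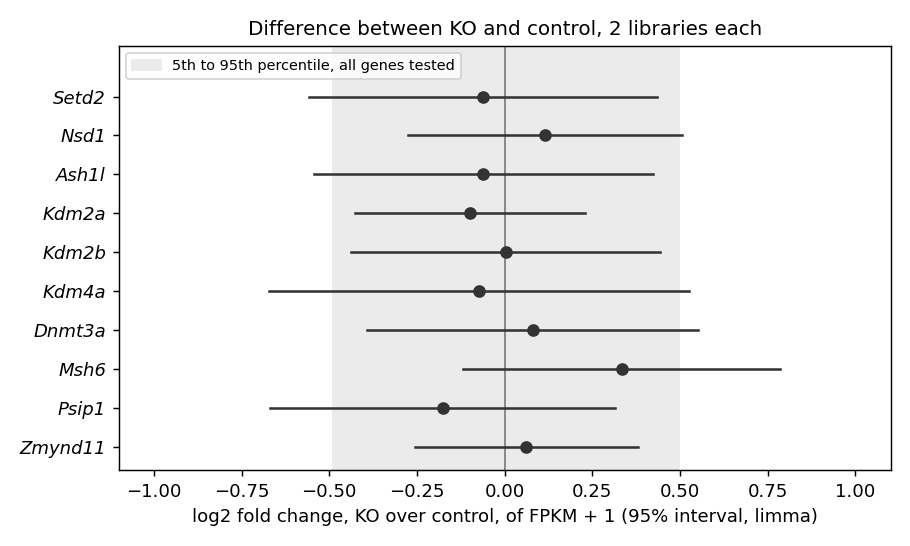
Log2 fold change of FPKM + 1 (points, KO over control) with its 95% interval from limma (lines) for the 10 genes, over a grey band that marks the range from the 5th to the 95th percentile of all genes tested. Every point lay inside the band and every interval crossed 0, and *Msh6* at 0.33 lay farthest from 0.

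Among the readers, *Msh6* (chr17:87975062-87990892) had an FPKM of 7.27 and 9.22 in control and 10.26 and 10.92 in KO. The lower KO value exceeded the higher control value, as for 24.2% of the genes tested. The mean was 8.24 ± 1.38 (SD, n = 2) in control and 10.6 ± 0.467 in KO. The fold change of 1.26 had a 95% interval from 0.921 to 1.72, and in limma the p was 0.126 before and 0.442 after adjustment. The absolute log2 fold change of 0.33 was as large as or larger than that of 76.9% of the genes tested. It was 0.18 without control 1 and 0.49 without control 2.

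Of 13 listed proliferation genes, all tested, 6 were higher in KO at an unadjusted p below 0.05 and 0 were lower, beside 8.61% and 7.57% of all genes tested, and 0 passed an adjusted p of 0.05. Their median log2 fold change was 0.26. *Top2a*, which encodes a topoisomerase of dividing cells, was at 19.05 and 19.42 in control and 36.28 and 33.18 in KO, and *Mki67*, which encodes the Ki-67 antigen, at 4.82 and 3.93 in control and 7.20 and 7.27 in KO. The summed FPKM of the list was 668.58 and 639.37 in control and 785.98 and 765.29 in KO. The part of these genes in the *Msh6* values was not tested.

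*Dnmt3a* (chr12:3806007-3914443) had an FPKM of 5.80 and 6.21 in control and 6.45 and 6.35 in KO. The KO values were above the control values by little, and the log2 fold change was 0.08 (95% interval -0.39 to 0.55). *Zmynd11* (chr13:9684833-9765330), whose product is known to bind methylated H3K36 on the variant histone H3.3, had 24.37 and 23.46 in control and 25.45 and 24.57 in KO. It varied least, by 0.11 on the log2 scale over the 4 libraries, and its log2 fold change was 0.06 (95% interval -0.26 to 0.38). *Psip1* (chr4:83455680-83486459) had 13.77 and 10.15 in control and 9.29 and 11.53 in KO. Its KO values overlapped the control values, and the log2 fold change of -0.18, with a standard error of 0.21 and an adjusted p of 0.737, became 0.03 without control 1, -0.03 without KO 1, -0.38 without control 2 and -0.32 without KO 2. Summed over the 4 readers, the FPKM was 51.21 and 49.04 in control and 51.45 and 53.37 in KO.

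The levels of the genes could be ordered, although the ranges of many neighbours overlapped. *Kdm2b* was above *Setd2*, and *Setd2* above *Zmynd11*, with ranges over the 4 libraries that did not overlap. *Zmynd11* and *Kdm2a* overlapped in range, but *Zmynd11* was the higher in all 4 libraries. *Kdm2a*, which was never below 20.85, was followed by *Nsd1*, which was never above 15.39. From *Nsd1* downward through *Psip1*, *Msh6*, *Ash1l*, *Dnmt3a* and *Kdm4a*, each gene overlapped in range with the next. Within these, *Nsd1* was above *Psip1*, and *Msh6* above *Ash1l*, in all 4 libraries. *Dnmt3a* and *Kdm4a* were close to the limit of 5 set for testing.

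The libraries were then compared by each gene's deviation from its own mean on the log2(FPKM + 1) scale. *Setd2* was 0.26 above its mean in control 1 and 0.19 above it in KO 2, and below it by similar amounts in the other libraries. *Nsd1* was also above its mean in control 1 and KO 2, by 0.04 and 0.13. Deviations of libraries that share a number, such as control 1 and KO 1, correlated at r = -0.30 over all genes tested. Opposite orders within the groups were thus not particular to the 10 genes. The share of all genes with the order of *Setd2* was not computed. *Psip1* was the nearest to *Setd2* of the other 9 genes, with a root-mean-square distance between the profiles of 0.08. *Kdm2b* and *Kdm4a* were nearest to each other, at 0.13, and both were above their means in control 2 and KO 1. *Zmynd11* and *Dnmt3a*, which varied least, were nearest to each other at 0.05. *Nsd1* and *Kdm2a* were nearest to *Zmynd11*, at 0.09 and 0.08, and *Ash1l* and *Msh6* to *Dnmt3a*, at 0.10 and 0.15. The distance is not scaled, so genes that vary little lie near others of small range whatever their direction. *Kdm2a* and *Zmynd11*, for example, had log2 fold changes of -0.10 and 0.06. In 7 of the 10 genes the control pair or the KO pair, or both, differed by more than the group means did. The share of all genes tested with this order was not computed. Over all of them the median difference was 0.19 in the control pair and 0.16 in the KO pair, beside a median absolute log2 fold change of 0.18. These profiles rest on 4 libraries and are a description.

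**Figure D3:**
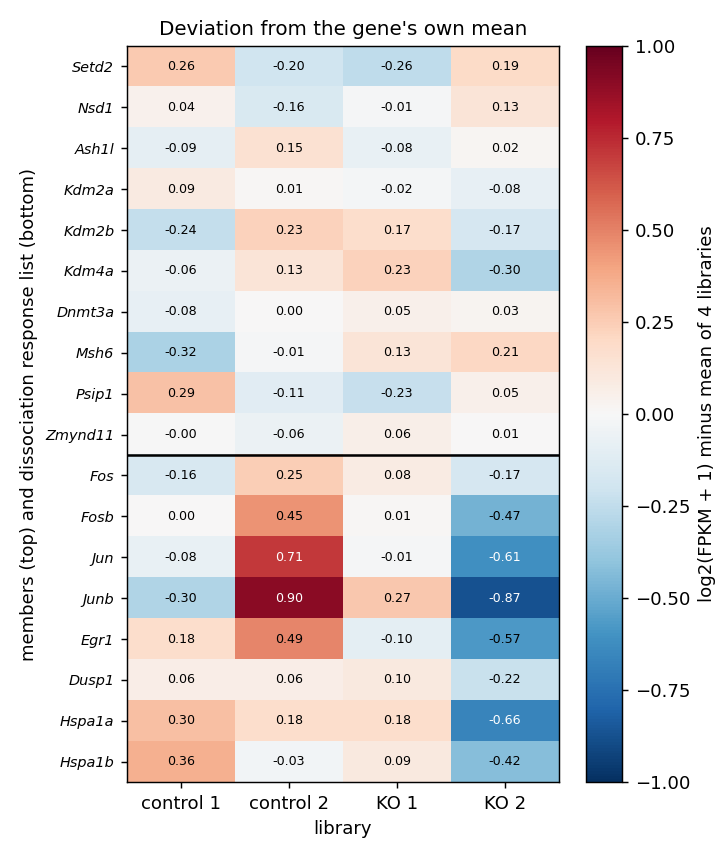
Deviation of log2(FPKM + 1) in each library from the mean of the 4 libraries, for the 10 genes (above the line) and for 8 dissociation response genes (below it), with red for values above the mean and blue for values below it. *Setd2* and *Psip1* were red in control 1 and KO 2, *Kdm2b* and *Kdm4a* were red in control 2 and KO 1, and *Junb* ran from 0.90 in control 2 to -0.87 in KO 2.

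Of 8 genes known to respond to cell dissociation, the AP-1 genes *Fos*, *Fosb*, *Jun* and *Junb* had, like *Kdm2b*, their highest values in control 2 and KO 1. For *Fosb* and *Jun*, however, KO 1 (15.03 and 83.68) was close to control 1 (14.89 and 80.03). *Egr1* was instead highest in both control libraries, the heat shock genes *Hspa1a* and *Hspa1b* were highest in control 1, and *Dusp1* was highest in KO 1. *Junb*, an AP-1 subunit, was at an FPKM of 1206.85 and 2771.52 in controls 1 and 2, and of 1790.25 and 813.41 in KO 1 and KO 2. *Jun* was also highest in control 2 (138.52) and next highest in KO 1 (83.68), and so was *Foxp3* (5.61 and 4.66). Over the 8 genes of the list the summed FPKM was 4426.68 and 6123.27 in control and 5050.58 and 3267.90 in KO, mostly *Dusp1* and *Junb*. In limma 1 gene (*Egr1*) was lower in KO at an unadjusted p below 0.05 (12.5% of the list, beside 7.57% of all genes tested). The median log2 fold change of the list was -0.47. The part of these 8 genes in the spread of *Setd2*, *Psip1*, *Kdm2b* and *Kdm4a* was not tested.

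The remaining genes of the H3K36 pathway were taken from lists of 51 genes, of which 39 were tested. limma called 0 of these at an adjusted and 0 at an unadjusted p below 0.05, beside 0.589% and 16.2% of all genes tested. Of the 39, 14 (35.9%) had groups that did not overlap, beside 47.1% of all genes tested. Of the other methyltransferases, 3 of 6 were tested. *Nsd3*, a paralog of *Nsd1*, had 172.31 and 146.18 in control and 168.73 and 184.07 in KO, several times the level of any of the 10 genes with the exception of *Kdm2b*. *Nsd2*, the remaining member of that family, had 8.08 and 7.12 in control and 6.64 and 6.24 in KO (log2 fold change -0.21, adjusted p = 0.653), and *Setd5* was the third tested. *Smyd2* had 5.64 and 2.74 in control and 2.72 and 1.50 in KO and, like *Setmar* and the germ cell gene *Prdm9*, was not tested.

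Among the other demethylases, 3 of 6 were tested, with a median log2 fold change of 0.26. *Kdm4b*, a paralog of *Kdm4a*, had 9.94 and 17.52 in control and 15.72 and 11.24 in KO, so that control 2 and KO 1 were again the higher libraries. *Kdm4c* had 10.25 and 12.26 in control and 12.80 and 14.45 in KO, with groups that did not overlap and an adjusted p of 0.521. *Riox2*, which encodes a JmjC hydroxylase, had 18.05 and 16.39 in control and 19.34 and 22.76 in KO (adjusted p = 0.442). *Kdm4d*, *Riox1* and *Kdm8* had an FPKM of at most 2.64.

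Of 18 other readers, 14 were tested, 4 with a higher and 10 with a lower mean in KO, and their median log2 fold change was -0.06. *Morf4l1*, which encodes the chromodomain protein MRG15, had the highest level, between 237.11 and 271.83. The largest differences were those of *Phf1*, a Tudor protein of polycomb repressive complex 2 (PRC2), with 7.52 and 8.92 in control and 7.31 and 4.57 in KO (log2 fold change -0.43, adjusted p = 0.442), and of *Pwwp2b*, with 6.53 and 5.74 in control and 4.88 and 3.85 in KO (-0.42, adjusted p = 0.420). *Dnmt3b*, the second de novo methyltransferase, had at most 2.05 and was not tested.

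Of 15 binding partners of these proteins, 13 were tested, and their median log2 fold change was -0.06. The groups did not overlap for 5 of the 13 (38.5%, beside 47.1% of all genes tested), 4 lower and 1 higher in KO. *Iws1* and *Supt6*, which encode elongation factors that work with SETD2, and *Polr2a*, which encodes the largest subunit of RNA polymerase II, were among the 4, with *Kmt2a*, and *Bcor* was the higher one. *Polr2a* was at 11.09 and 13.89 in control and 10.78 and 8.73 in KO (log2 fold change -0.33, 95% interval -0.79 to 0.14, adjusted p = 0.460). *Dnmt1*, the maintenance DNA methyltransferase, had overlapping groups, and *Dnmt3l* was listed at 0 in all 4 libraries. Of the listed partners of KDM2B in the variant polycomb complex, *Pcgf1*, *Bcor*, *Rnf2* and *Usp7* had log2 fold changes between -0.24 and 0.19, and *Bcorl1* was not tested.

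H3K36 methylation is known to limit PRC2, which methylates H3K27. All 4 PRC2 genes listed were tested and none was called. *Ezh2*, the catalytic subunit, had 16.73 and 10.20 in control and 10.54 and 12.67 in KO, and *Suz12*, a core subunit, 20.01 and 15.85 in control and 13.65 and 17.33 in KO. In *Ezh2*, *Suz12* and *Eed*, as in *Setd2*, the higher library of each group was control 1 or KO 2. *Ezh1*, the alternative catalytic subunit, had the opposite order, with 20.13 and 28.42 in control and 27.30 and 22.54 in KO. Of the genes for histone H3.3, *H3f3b* had the highest level, between 7085.14 and 8302.49, and *H3f3a* had 375.24 and 441.83 in control and 357.00 and 348.32 in KO (log2 fold change -0.21, adjusted p = 0.437).

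**Figure D4:**
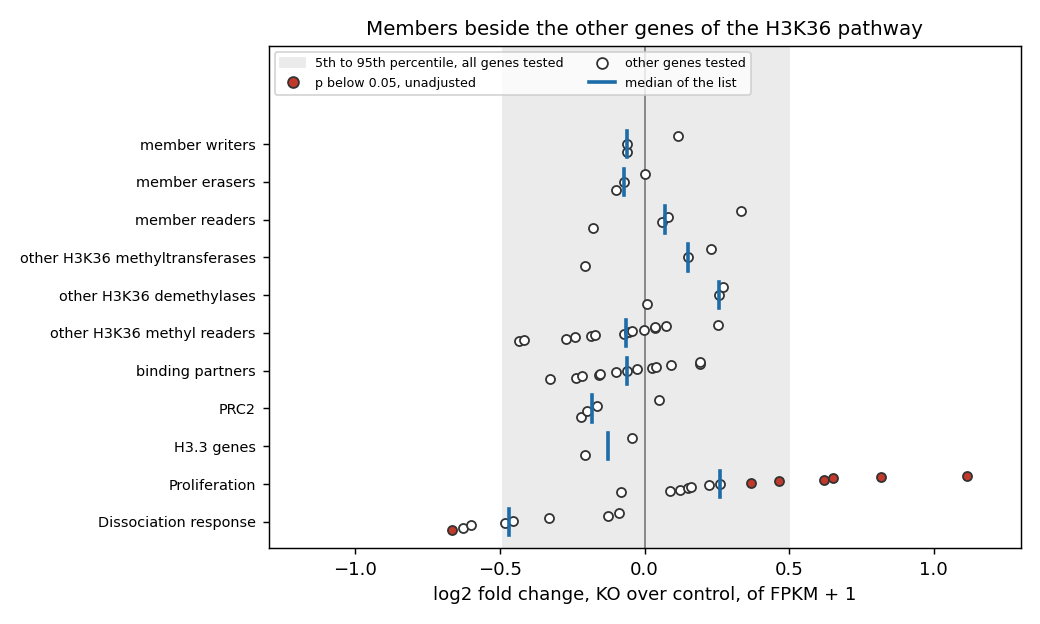
Log2 fold change of FPKM + 1 (KO over control) of each gene tested in the 10 genes (rows member writers, erasers and readers), in the lists of the H3K36 pathway and in the proliferation and dissociation response lists. Filled points mark an unadjusted p below 0.05, blue lines the median of a list and the grey band the range from the 5th to the 95th percentile of all genes tested. No gene of the pathway lists was filled, compared with 6 of 13 proliferation genes.

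The strand of the reads was not stated to be used in counting, so fragments from exons that overlap on opposite strands cannot be told apart. *Psip1* shares 9.50% of its exonic bases with *Snapc3*, whose FPKM was at most 28.29. *Kdm2b* shares 5.77% with *Rnf34* (at most 8.96), and *Ash1l* shares 2.37% with *Dap3* (at most 50.04). In *Zmynd11*, *Dnmt3a* and *Msh6* the shared exons belong to genes at an FPKM of at most 0.56 or cover less than 1% of the exonic bases. The level of these genes is uncertain to that extent.

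Control 2 listed fewer genes at 0 (28426) than the other libraries (33223 to 33957). The T cell markers *Cd3e* and *Cd4* lay between 130.75 and 220.38 and *Il2ra* between 152.14 and 183.66, whereas *Foxp3* itself was at 2.62 to 5.61 and was not tested. Over the 6 Treg markers the summed FPKM was 2211.77 to 2409.21 in control and 2756.47 to 2866.80 in KO, mostly *Ctla4* (1593.26 and 1700.67 in control, 2159.97 and 2310.35 in KO). In limma *Ctla4* was called higher and *Ikzf2* lower at an unadjusted p below 0.05, beside 8.61% and 7.57% of all genes tested. Neither passed an adjusted p of 0.05, and the means of *Cd4* and *Il2ra* were lower in KO. Of other cell types, the 2 CD8 markers summed to at most 2.96 and the 3 B cell markers to at most 4.88. The 3 plasma cell markers summed to between 120.38 and 173.84, mostly *Jchain*, and the 5 myeloid markers to between 161.24 and 210.71, mostly *Lyz2*. The 5 epithelial markers summed to 28.96 and 30.90 in control and 20.30 and 21.38 in KO, nearly all of it *Epcam*. The 4 stromal and vessel markers summed to 35.80 and 37.03 in control and 50.41 and 43.61 in KO, nearly all of it *Pecam1*. Of the other markers in these lists, *Krt8*, *Krt20*, *Vil1* and *Cdh5* were at 0.19 or below and *Cdh1* at 0.49 or below. *Col1a1* and *Col3a1* were at 0.68 or below. The part of these cells in the values of the 10 genes was not tested.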

How the data were processed

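RNA-seq of 4 libraries of sorted LI Treg cells was used (2 control, 2 KO, each a pool of 2 to 3 mice). The submitters' processing notes and the methods name STAR 2.5 on GRCm38 and RSEM 1.2. The authors deposited FPKM for 53379 genes, rounded to 2 decimals. The columns share a common distribution of values, a step that the methods do not name. Library depth is unknown, so a count test and counting intervals could not be used. Precision comes from the spread between pools, which limma moderates over all genes tested. KO was compared with control on the scale of log2(FPKM + 1) by limma (version 3.58.1, R 4.3.3) with a trend and no covariate. The fit held 7639 protein-coding genes (GENCODE M21, GRCm38) whose mean FPKM exceeded 5 in at least one group, and Benjamini-Hochberg adjustment was made over all of them. Fold changes on this scale understate those of low genes. The fit was tested on simulated data.

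The 10 genes and the pathway and marker lists were chosen with earlier results of these data known. The text names all 10 genes and, for each, the nearest other one by profile. Genes of the pathway and marker lists are given as counts and medians, and those named singly among them were picked after their values were seen. For 1 listed gene no value is reported here. The overlapping genes *Snapc3*, *Rnf34* and *Dap3* were named after their values were seen. *Pwwp3a* was found under its older symbol *Mum1*, and of 2 rows for *Itgam* the one with the higher mean was used. Alternatives were the pseudocount, the filter, all gene types, median centring, quantile normalization, no trend, the replicate number as a block and each library left out. Python 3.11.15, pandas 2.3.3 and matplotlib 3.10.9 were used for tables and figures.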

Additional observations from a re-analysis of the deposited data

How the results depend on the processing

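None of the 10 genes was called under any of the 13 alternatives, at an adjusted or an unadjusted p below 0.05. The sign of the log2 fold change held under each of them for *Nsd1*, *Kdm2a*, *Dnmt3a*, *Msh6* and *Zmynd11*. The filter, all gene types, no trend and the block leave the log2 fold change itself the same, so the sign could not turn under them. Nor could it turn for *Kdm2a*, *Dnmt3a*, *Msh6* and *Zmynd11* when a library was omitted, since their groups did not overlap. Median centring and quantile normalization could change little, since the columns already shared a common distribution. The held signs are therefore no further evidence for these genes. When single libraries were omitted, the log2 fold change ranged from -0.30 to 0.17 for *Setd2*, from -0.18 to 0.063 for *Ash1l* and from -0.23 to 0.24 for *Kdm2b*. It ranged from -0.34 to 0.19 for *Kdm4a* and from -0.38 to 0.026 for *Psip1*. Quantile normalization turned *Kdm2b* from 0.0029 to -0.0019. Over the alternatives, the adjusted p of *Msh6* lay between 0.382 and 0.837.

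Over all 7639 genes, 24 were higher and 21 lower in KO at an adjusted p below 0.05, and 658 and 578 at an unadjusted p below 0.05. With a mean FPKM above 1 the adjusted count of lower genes was 11 and that of higher genes 16. Without a filter the adjusted counts were 8 and 3 and the unadjusted counts 1198 and 829. With all gene types the adjusted counts were 5 and 8, and without a trend 1 and 2. When single libraries were omitted, the adjusted counts ranged from 1 to 36 for higher and from 1 to 30 for lower genes, and the unadjusted counts from 330 to 650 and from 314 to 600. The adjusted counts were 1 and 1 without KO 1, 1 and 2 without KO 2, and 36 and 30 without control 2. The arm left with 1 library was assumed to vary like the other. The cause of these changes was not tested.

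Whether the replicate numbers pair the libraries is not known, and with 2 libraries per group a correlation cannot decide it. The deviations of libraries that share a number correlated at r = -0.30 over genes, and no source says that a number marks a shared litter or day. With the replicate number as a block the adjusted counts were 15 and 12 and the unadjusted counts 419 and 377, and 0 of the 10 genes were called. With the numbers crossed, so that control 1 was paired to KO 2, a choice made after seeing the data, the adjusted counts were 240 and 225, the unadjusted counts 1008 and 983, and 0 of the 10 genes were called. The depth of the libraries is unknown, and the spread between 2 pools limits what could be detected.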
